A study of Mus musculus with 6 samples.

Results

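The response of long non-coding RNAs (lncRNAs) to 18 h without GDNF (glial cell line-derived neurotrophic factor) was read from 4 of the 6 RNA sequencing libraries of the series. Cultured mouse spermatogonial stem cells (SSCs) that had lost GDNF for 18 h (0h, n = 2) were compared with cells kept in normal culture (N, n = 2). The remaining 2 libraries (8h, GDNF returned for 8 h after the same withdrawal) were kept in the fit for the estimate of the spread. They also entered the estimated difference between the replicates, and so could shift the fitted changes. The starting cells of all groups were Thy1-positive germ cells pooled from C57BL/6 mice of 6 to 8 days of age, grown for 10 to 20 passages on an inactivated STO fibroblast feeder layer. Their serum-free medium was supplemented with GDNF at 20 ng/ml, GFRA1 protein at 150 ng/ml and FGF2 at 1 ng/ml. GDNF is the only factor that the labels name as withdrawn. The study describes 2 independently established lines put through every condition, and the replicate numbers 1 and 2 are read here as these lines, which the labels do not state outright. Germ cell clumps were lifted off by pipetting, a step that the study describes as giving germ cells of high purity, and the share of feeder RNA was not tested here. The tables hold only lncRNAs, and neither spermatogonial nor feeder marker genes could be looked up in them. In such bulk samples, fewer cells of a type and less RNA per cell cannot be told apart.

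GDNF is secreted by somatic cells of the testis, chiefly Sertoli cells, and binds the co-receptor GFRA1, which engages the receptor tyrosine kinase RET on spermatogonia. This signal sustains self-renewal of SSCs and, with FGF2, allows them to be propagated as clumps in culture. LncRNAs are transcripts with little or no coding potential, some of which act on chromatin, on transcription of neighbouring genes or on other RNAs. For nearly all of the transcripts described here the tables give an identifier and a length but no function. Identifiers that begin with n are lncRNAs of the NONCODE catalogue (known lncRNAs), and those that begin with TCONS are transcripts assembled from the study's own reads and judged to be non-coding (predicted lncRNAs).

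The 4 libraries held between 7.83 M and 8.50 M unique reads on lncRNAs, and the normalization factors ranged from 0.9816 to 1.0035. The 9 transcripts with the most reads took 29.73% to 32.24% of the counts, while a typical listed lncRNA had few reads (median count 11). Of 73710 lncRNAs listed in any of the 6 libraries, 71435 were listed in at least 1 of these 4, and 34347 reached a count of 10 in 2 or more of these libraries and were tested. These were 14143 known and 20204 predicted lncRNAs. At the edge of this filter, 2061 transcripts had a second-highest count of 10 and 1743 had one of 9. Nearly all tested lncRNAs were of the length usual for the class, with 4 under 200 bp. Counts of the 2 libraries of each condition differed by more than sampling noise, with a chi-square per degree of freedom of 6.38 in N and 7.52 in 0h.

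GDNF withdrawal was followed by changes in both directions, and falls outnumbered rises among all called lncRNAs, though not in every class of abundance. A lncRNA was called when it changed at least 2-fold with a false discovery rate (FDR, the Benjamini-Hochberg adjusted p of edgeR's quasi-likelihood test, with the line as a block) under 0.05, which 668 lncRNAs did (1.94% of those tested). Of these, 277 rose (0.806%) and 391 fell (1.14%). The median log2 fold change was 1.65 among those that rose, -1.78 among those that fell and -0.02 among all tested. A change of at least 4-fold was found for 101 that rose and 164 that fell. Below 20 mean normalized counts 29 rose and 68 fell, from 20 to 50 counts 77 and 121, and from 50 to 200 counts 103 and 135. From 200 to 1000 counts 56 rose and 51 fell, and at 1000 or more 12 and 16. Without the block for the line, 80 rose and 115 fell. The surplus of falls narrowed when 1 library of line 2 was left out, to 251 that rose and 261 that fell without its N library and to 254 and 275 without its 0h library.

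The calls held a small share of the lncRNA reads. The 277 that rose took 0.411% and 0.408% of the counts in the N libraries and 1.05% and 1.15% in the 0h libraries. The 391 that fell took 1.46% and 1.55% in N and 0.563% and 0.544% in 0h. The balance of known and predicted lncRNAs as a whole moved little, with known lncRNAs at 69.9% to 70.7% of the counts in all 4 libraries. A further 464 lncRNAs passed the FDR threshold with less than a 2-fold change, 239 higher and 225 lower in 0h, and their median abundance of 570 normalized counts was far above that of the called lncRNAs, 64.0.

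**Figure D1:**
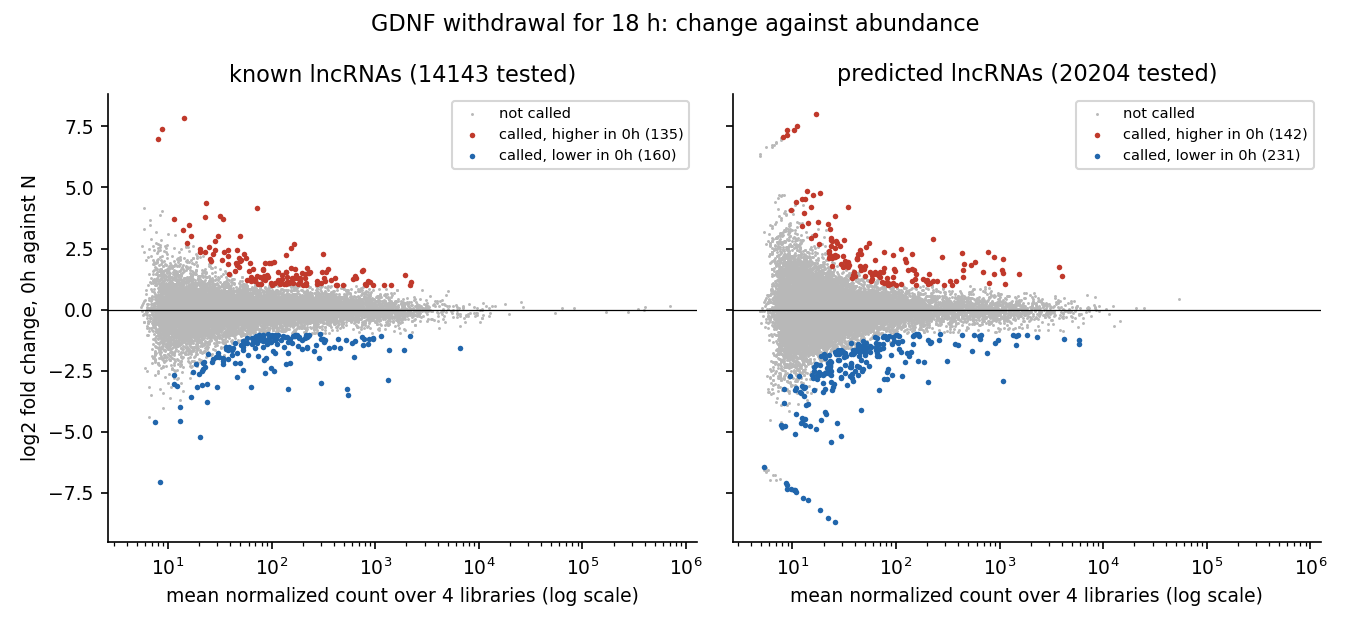
Log2 fold change of each tested lncRNA (0h against N) against its mean normalized count over the 4 libraries (log axis), for known and predicted lncRNAs, with the called ones in colour. Of the known lncRNAs 135 rose and 160 fell, and of the predicted 142 rose and 231 fell. The separate streaks beyond about 6 on the vertical axis are lncRNAs with no count in either library of 1 condition, whose fitted fold change depends on the prior count.

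The supplement of the study lists abundant lncRNAs with their identifiers, a list that was not used for the choice here. Of the lncRNAs that its main text names as responsive to GDNF, some carry locus numbers that the data lack and are not analysed here. The other 2 could be matched. The first, lncRNA033862, which the study placed antisense to Gfra1, the gene of the GDNF co-receptor, was identified here as TCONS_00074936, the only transcript of the length the study gives, a match by length alone. TCONS_00074936 had 9045 and 8103 normalized counts in the N libraries of lines 1 and 2 and 3363 and 3048 in the 0h libraries. Both 0h values lay below both N values, a fall that was alike in the lines (2.69-fold and 2.66-fold). On the log2 scale the change was -1.42 ± 0.11 (SE, FDR 3.6e-07), and the exact two-sided permutation test of 2 libraries against 2 gave p = 0.333, the smallest it allows. Its level per length fell from 166 ± 13.5 to 61.9 ± 3.39 RPKM (SD, n = 2). The deposited coverage of this transcript stayed between 52.4% and 60.2% in the 4 libraries. How coverage was defined is not known, and 1 value above 100% occurs in each of N replicate 2 and 0h replicate 1. What part of the assembled length was read is therefore not concluded here. The sources used here do not state that the counting kept the strand, so reads of Gfra1 itself cannot be told apart from those of an antisense transcript where they overlap.

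The second, n266295 (2106 bp), rose. It had 118 and 117 normalized counts in N and 396 and 288 in 0h, so the groups did not overlap. The log2 fold change was 1.51 ± 0.22 (FDR 0.00033), 3.36-fold in line 1 and 2.45-fold in line 2. Without the block the FDR was 0.051, just past the threshold.

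Among known lncRNAs with at least 100 normalized counts, the 5 largest falls were steeper than the 5 largest rises. The largest fall was that of n288959 (3126 bp), from 594 and 1442 normalized counts in N to 102 and 61.4 in 0h. Both lines fell, but to unequal extents, 5.82-fold in line 1 and 23.3-fold in line 2, and the fitted log2 fold change was -3.48 ± 0.31 (FDR 1.4e-06). Without the 0h library of line 1 it was -4.58, and without that of line 2 it was -2.51.

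The next 4 falls among known lncRNAs shared this order of the lines. n290124 (1242 bp) went from 278 and 242 normalized counts in N to 34.2 and 20.8 in 0h, with a log2 fold change of -3.25 ± 0.23. n279933 (3685 bp) went from 1025 and 885 to 158 and 59.5, with a log2 fold change of -3.24 ± 0.22. n284454 (3133 bp) went from 568 and 509 to 98.7 and 36.8, with a log2 fold change of -3.02 ± 0.26. In each of these the 0h libraries lay below the N libraries, and the fall was larger in line 2 (11.4-fold, 14.8-fold and 13.7-fold) than in line 1 (8.03-fold, 6.46-fold and 5.73-fold), a difference that could not be tested with 1 library per line and condition. n297517 (1318 bp) was the most abundant of the 5 per length, at 220 ± 15.3 RPKM in N and 30.1 ± 13.2 RPKM in 0h (SD, n = 2). Its normalized counts were 2224 and 2467 in N and 426 and 220 in 0h, with a log2 fold change of -2.87 ± 0.22. The log2 fold change of n284454 was -3.90 without the 0h library of line 1 and -2.42 without that of line 2, and that of n297517 was -3.57 and -2.31.

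Among known lncRNAs with at least 100 normalized counts, the 5 with the largest rise started from low levels. The level in N also enters the fold change, so this is a description. n290752 (2623 bp) had 48.5 and 39.5 normalized counts in N and 259 and 309 in 0h, with a log2 fold change of 2.68 ± 0.24 (FDR 1.3e-06). n277028 (3575 bp) had 28.9 and 61.2 in N and 276 and 250 in 0h, with a log2 fold change of 2.54 ± 0.29. n285326 (4475 bp) had 128 and 86.8 in N and 515 and 529 in 0h, with a log2 fold change of 2.28 ± 0.22. Groups did not overlap for any of the 3, and for n277028 the spread was in the N libraries, so that the estimate ranged from 1.95 without the N library of line 1 to 3.34 without that of line 2. n275844, only 613 bp long, had 59.8 and 36.5 normalized counts in N and 230 and 221 in 0h, with a log2 fold change of 2.24 ± 0.25. n264879 (3379 bp) had 62.9 and 25.7 in N and 189 and 144 in 0h, with a log2 fold change of 1.95 ± 0.28 (FDR 0.00035). Without the N library of line 1 this last value was 2.55. Below the limit of 100, n201097 (1997 bp, mean of 72.3 normalized counts) rose further, with a log2 fold change of 4.15 ± 0.40.

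Predicted lncRNAs of at least 100 normalized counts rose as far as they fell. TCONS_00154177 (5587 bp) had 53.6 and 53.3 normalized counts in N and 387 and 407 in 0h. Its replicates lay close together within each condition, and the log2 fold change was 2.89 ± 0.21 (FDR 1.2e-07), 7.16-fold in line 1 and 7.58-fold in line 2. Its deposited coverage was 51.9% and 41.2% in N and 89.9% and 99.6% in 0h.

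Larger spread in N marked the next rise. TCONS_00107499 (1064 bp) had 16.5 and 55.3 normalized counts in N and 183 and 191 in 0h, and its log2 fold change of 2.50 ± 0.33 ranged from 1.93 without the 0h library of line 1 to 3.26 without the N library of line 2. TCONS_00011710 (4330 bp) rose from 321 and 201 to 1277 and 1317, with a log2 fold change of 2.34 ± 0.17. TCONS_00000964 (6211 bp) rose from 135 and 157 to 598 and 852, with a log2 fold change of 2.30 ± 0.16. In all of these every 0h library lay above every N library. TCONS_00075110 (2463 bp) rose from 43.3 and 52.3 to 193 and 279, with a log2 fold change of 2.29 ± 0.27.

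TCONS_00021677 (3869 bp) combined a large fall with a high level. It had 2149 and 1687 normalized counts in N and 289 and 223 in 0h, and RPKM fell from 61.3 ± 10.6 to 8.15 ± 1.37 (SD, n = 2). The lines fell alike (7.42-fold and 7.56-fold), and the log2 fold change was -2.91 ± 0.15 (FDR 2.3e-09). TCONS_00051067 (3288 bp) went from 299 and 421 normalized counts in N to 47.3 and 45.3 in 0h, with a log2 fold change of -2.95 ± 0.23.

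The remaining 3 of the 5 predicted lncRNAs with the largest fall were at lower levels. TCONS_00014682 (2700 bp) went from 175 and 221 to 38.3 and 20.8 normalized counts, with a log2 fold change of -2.73 ± 0.31 that was -3.48 without the 0h library of line 1 and -2.12 without that of line 2. TCONS_00024849 (6189 bp) went from 368 and 228 to 105 and 37.8, with a log2 fold change of -2.15 ± 0.23. TCONS_00015563 (5992 bp) went from 295 and 107 to 53.4 and 32.1, with a log2 fold change of -2.15 ± 0.28. The groups did not overlap for any of them, but fits without the block did not call the last 2 in every form, with FDR values reaching 0.08 and 0.06, and n264879 above reached 0.058.

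**Figure D2:**
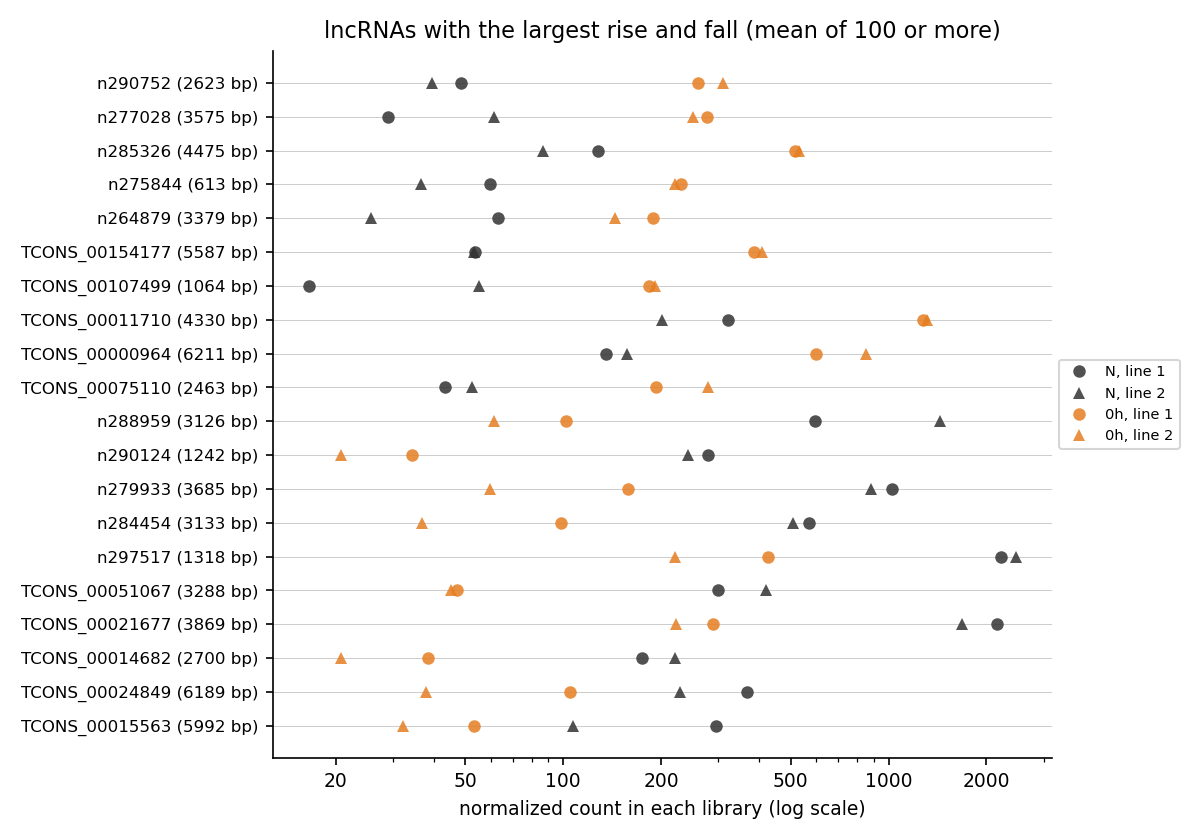
Normalized counts in each library (log axis) of the 5 known and 5 predicted lncRNAs with the largest rise (upper 10 rows) and the largest fall (lower 10 rows) among the called with a mean of at least 100. Circles are line 1 and triangles line 2, and in every row both 0h points (orange) lie on one side of both N points (grey).

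The called lncRNAs with the most reads in each direction changed in smaller steps than the largest rises and falls above. The called lncRNA with the most reads was n271995 (4862 bp), with 8103 and 11632 normalized counts in N and 3166 and 3371 in 0h. Its level fell from 251 ± 62.5 to 82.9 ± 4.91 RPKM (SD, n = 2), which moved its rank by RPKM from 175 to 769 of all listed lncRNAs, and the log2 fold change was -1.56 ± 0.13 (FDR 3.8e-07). TCONS_00040388 (4807 bp) went from 201 and 217 RPKM in N to 77.0 and 104 in 0h, with a log2 fold change of -1.23 ± 0.12. TCONS_00065975 (3494 bp) went from 214 and 201 RPKM to 98.7 and 83.0, with a log2 fold change of -1.19 ± 0.12. In N the levels of TCONS_00040388 and TCONS_00065975 (209 ± 11.4 and 208 ± 9.50 RPKM) did not differ beyond their spread, and in 0h they again lay together, at 90.2 ± 18.8 and 90.9 ± 11.1 RPKM. TCONS_00137563 (4748 bp) went from 71.3 and 92.0 RPKM to 33.4 and 42.6, with a log2 fold change of -1.10 ± 0.13. Its change was 0.95 in size, short of 2-fold, without the N library of line 2.

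Of the 5 most-read lncRNAs that rose, 2 were predicted lncRNAs. TCONS_00106475 (3679 bp) had 47.1 and 69.5 RPKM in N and 159 and 225 in 0h. TCONS_00065263 (3980 bp) had 76.9 and 62.0 RPKM in N and 170 and 184 in 0h. Both were above their N values in both lines, with log2 fold changes of 1.73 ± 0.11 (FDR 6.1e-08) and 1.36 ± 0.11 (FDR 6.9e-07), and by mean RPKM they moved from rank 1247 to 230 and from rank 985 to 253.

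The others were known lncRNAs. n284660 (3275 bp) rose from 35.0 and 43.8 to 86.4 and 126 RPKM, a log2 fold change of 1.41 ± 0.13. n267414 (2711 bp) rose from 56.5 and 68.8 to 112 and 163 RPKM, a log2 fold change of 1.12 ± 0.12. n280931 (3296 bp) rose from 56.2 and 49.96 to 106 and 109 RPKM, a log2 fold change of 1.03 ± 0.11. The groups did not overlap for any of the 3, and n280931 lay so near the 2-fold limit that it fell below it without the N or the 0h library of line 2.

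**Figure D3:**
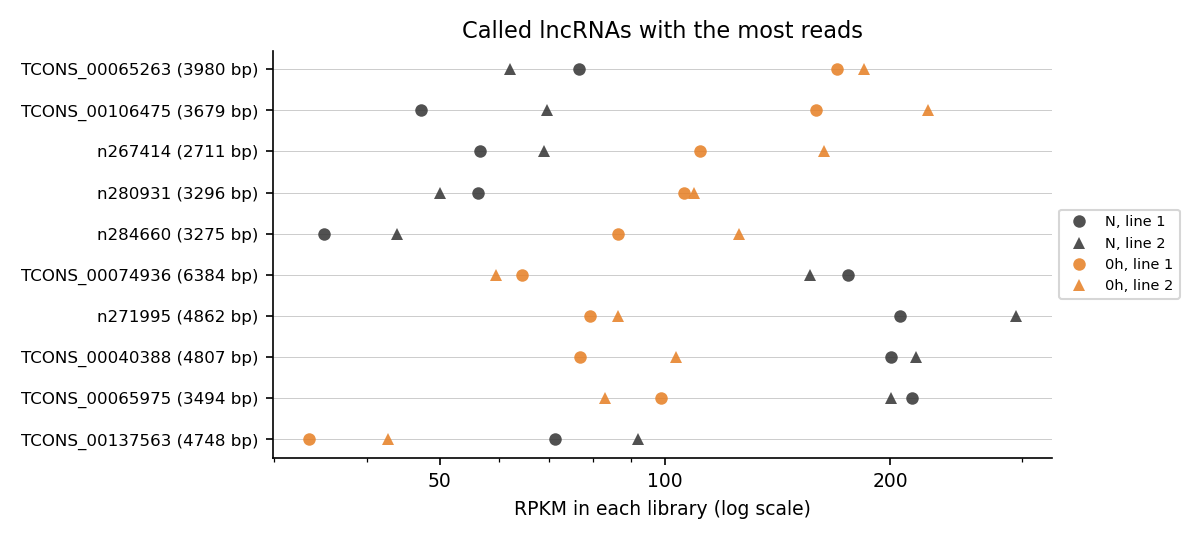
RPKM in each library (log axis) of the called lncRNAs with the most reads, 5 that rose (upper rows) and 5 that fell (lower rows). Circles are line 1 and triangles line 2. In N the lncRNAs that fell reached 295 RPKM, and in 0h those that rose reached 225 RPKM.

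The lncRNAs at the top of the whole list were not called. By RPKM in N the first 5 were n422896, n294267, n422895, n272737 and n422894, with means from 60970 down to 19740 RPKM. Their log2 fold changes were 0.01, 0.12, 0.14, 0.08 and -0.09, with FDR values from 0.22 to 0.98. The first 2 exchanged places in 0h and the other ranks stayed, and in the fit none of the 5 differed between the conditions by more than 1.1-fold.

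Some lncRNAs had no count in either library of 1 condition. Such a lncRNA passed the filter only where both libraries of the other condition reached the filter's least count. Entry to the test thus already fixed the direction and a large fold, and the calls and fold bounds given here are descriptions. Of 24 tested lncRNAs at 0 in both 0h libraries, 14 were called, 13 of them predicted, and of 19 at 0 in both N libraries, 9 were called, 6 of them predicted. Against a floor of 3 counts over the group, which covers counting error only, the 14 were at least 7.24-fold to at least 35.9-fold lower in 0h and the 9 at least 10.6-fold to at least 22.6-fold higher.

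TCONS_00053255 (3100 bp) had the most reads of the first set, 30 and 74 counts in N and 0 in both 0h libraries, at least 35.9-fold lower. TCONS_00041822 (1997 bp) had 29 and 59 counts in N and was at least 30.3-fold lower. TCONS_00053838 (1005 bp) had 25 and 48 and was at least 25.2-fold lower. For each of these the N count was higher in line 2. In the other direction, TCONS_00103720 (2537 bp) had 17 and 53 counts in 0h and was at least 22.6-fold higher. n286278 (1079 bp) had 31 and 27 counts in 0h and was at least 18.7-fold higher. TCONS_00055611, of 396 bp, had 28 and 17 and was at least 14.5-fold higher. DESeq2 called TCONS_00053255 alone among these 6 and gave the others no adjusted p, so they were not judged against the FDR threshold. Its log2 fold changes for them were -7.85, -7.59, 7.40, 7.29 and 6.95, in the order named. TCONS_00055611 kept its call in 7 of 13 alternative fits.

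Over all abundances known lncRNAs were called slightly more often than predicted ones, while within each class of abundance the order was the reverse. In every class the exact 95% binomial intervals of known and predicted lncRNAs overlapped, so this order is a description. Of 14143 known lncRNAs 295 were called (2.09%), 135 up and 160 down, and of 20204 predicted lncRNAs 373 were called (1.85%), 142 up and 231 down. Falls made up 54.2% of the known and 61.9% of the predicted calls, a difference given here as a description. At a mean of at least 50 normalized counts the split was 99 up and 116 down for known, and 72 up and 86 down for predicted lncRNAs. The median abundance was 49.0 normalized counts for known and 19.2 for predicted lncRNAs. Below 20 normalized counts 0.516% of known and 0.734% of predicted lncRNAs were called, and from 50 to 200 counts 3.61% and 3.88%. At 1000 counts or more the shares were 1.75% (11 of 627) and 3.63% (17 of 468).

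In both classes those that fell had started high. The median RPKM in N of known lncRNAs was 3.44 for all tested, 4.10 for those that rose and 8.84 for those that fell. For predicted lncRNAs the medians were 2.08, 1.96 and 4.14. As the level in N also enters the fold change and the filter passes lncRNAs that are high in 1 condition only, these medians are descriptions.

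The share called varied with the number of reads. Below 20 normalized counts 0.675% of lncRNAs were called, and the median standard error of a log2 fold change was 0.76. Between 50 and 200 counts 3.72% were called, with a median standard error of 0.27. At 1000 counts or more 2.56% were called at 2-fold, while 15.3% passed the FDR threshold at any fold, and the median standard error was 0.12. Changes themselves were smaller among abundant lncRNAs, with a median absolute log2 fold change of 0.57 below 20 counts and 0.19 at 1000 or more.

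Length separated predicted lncRNAs more than known ones. Among predicted lncRNAs, 0.809% of those under 500 bp, 0.884% of those from 500 to 1000 bp and 1.50% of those from 1000 to 2000 bp were called. From 2000 to 5000 bp the share was 3.91%, and at 5000 bp or more it was 3.85%. Among known lncRNAs the shares in the same classes were 1.76%, 1.79%, 2.03%, 2.22% and 1.54%. Long predicted lncRNAs also carried more reads, with a median of 482 normalized counts at 5000 bp or more against 14.2 between 500 and 1000 bp.

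Within abundance classes the length pattern of predicted lncRNAs was still seen. Below 50 normalized counts 1.06% of predicted lncRNAs under 2000 bp and 3.21% of longer ones were called. This class is wide, with 0.734% of predicted lncRNAs called below 20 counts and 2.51% from 20 to 50, so it does not separate length from depth. Between 50 and 200 counts the shares were 2.89% and 4.91%, and at 200 or more they were 2.10% (9 of 428) and 4.09% (49 of 1198). For known lncRNAs the pairs were 0.921% and 1.30%, 3.83% and 3.39%, and 1.88% and 2.87%. The longest called lncRNAs with at least 100 normalized counts were both predicted. TCONS_00069400 (8942 bp) rose from 299 and 347 normalized counts in N to 1210 and 1637 in 0h, a log2 fold change of 2.13 ± 0.17 (FDR 3.1e-07). TCONS_00085329 (8120 bp) fell from 2663 and 2333 to 1283 and 1136, a log2 fold change of -1.05 ± 0.12 (FDR 2.1e-05), and was under 2-fold without the N library of line 1 or the 0h library of line 2.

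**Figure D4:**
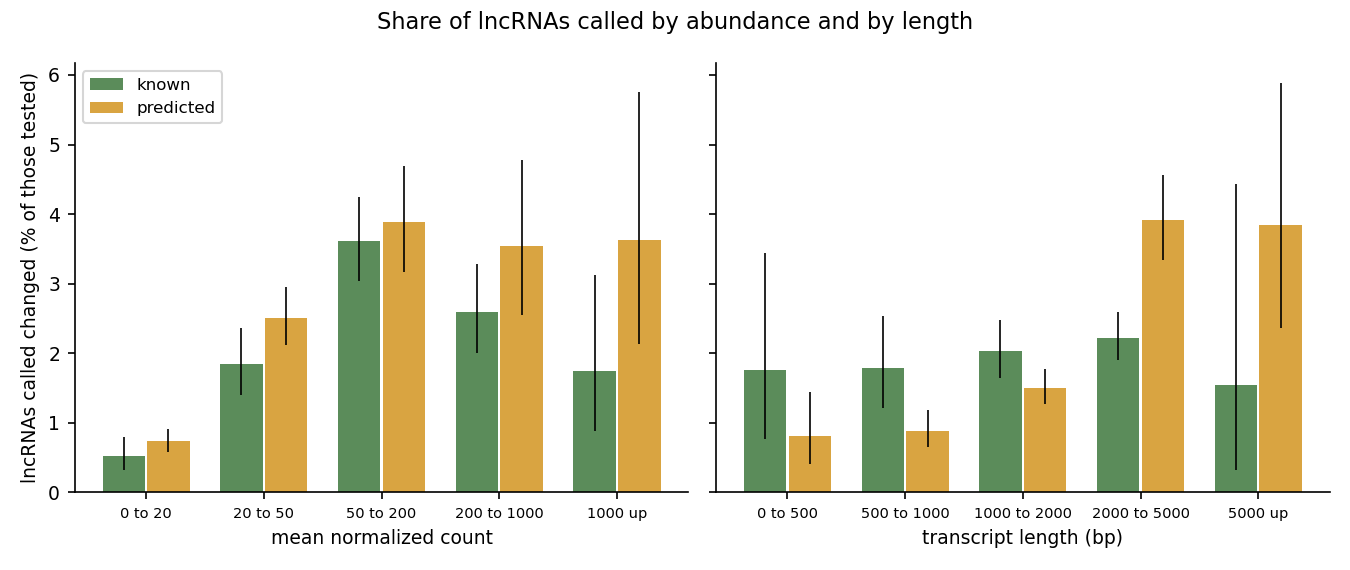
Share of tested known and predicted lncRNAs that were called, by mean normalized count and by transcript length in bp. Bars start at 0, and lines are exact 95% binomial intervals, which treat transcripts as independent although isoforms can share reads. For predicted lncRNAs the share was 0.809% under 500 bp and 3.91% from 2000 to 5000 bp.

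The lines moved together where reads were many. Across all 34347 tested lncRNAs, the log2 ratios of 0h to N in line 1 and line 2 had a Pearson r of 0.258 and a Spearman rho of 0.248, and 59.8% had the same sign. Within the classes of abundance r was 0.204 below 20 normalized counts, 0.353 from 20 to 50, 0.492 from 50 to 200, 0.722 from 200 to 1000 and 0.831 at 1000 or more. Signs were the same for 55.4% in the lowest class and 78.3% in the highest. Known and predicted lncRNAs differed little in this, with r of 0.818 and 0.847 at 1000 counts or more. These coefficients describe transcripts, which are not replicates and share the same 4 libraries.

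**Figure D5:**
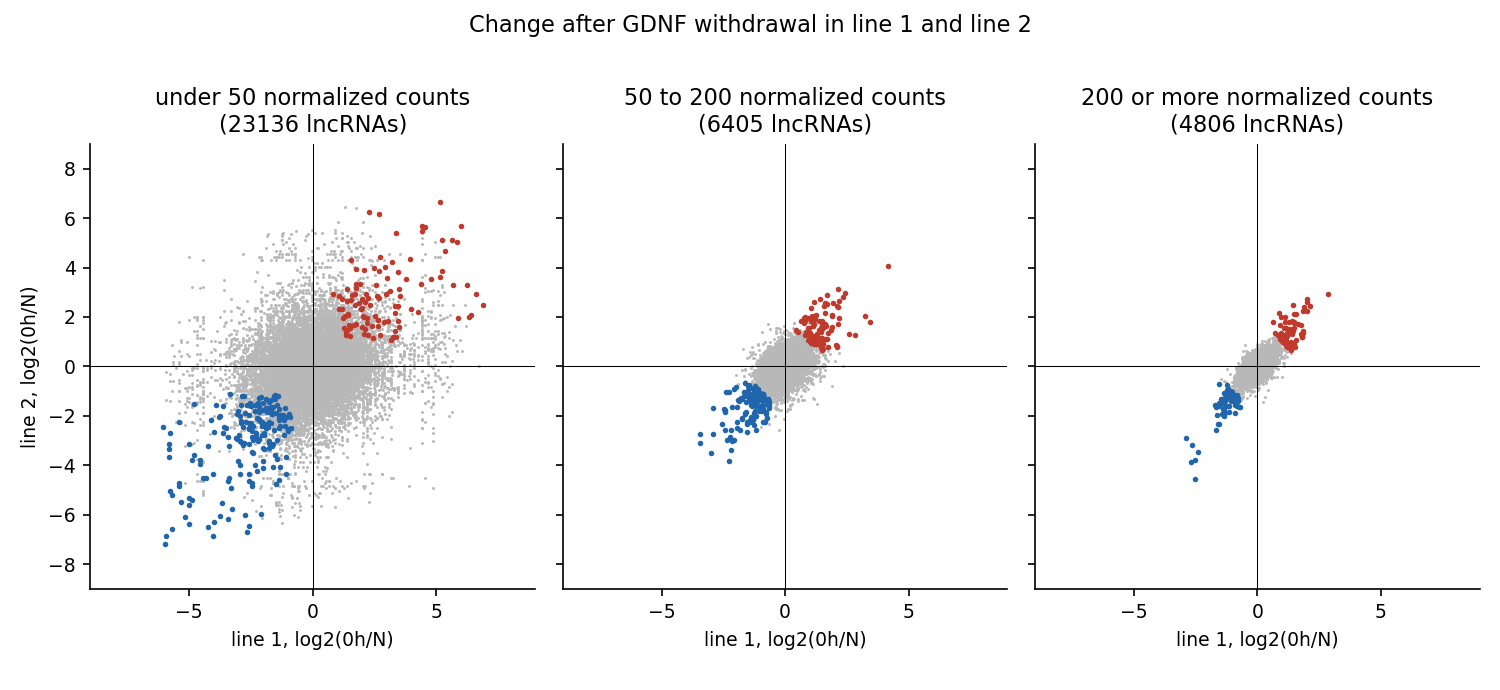
Log2 ratio of 0h to N in line 2 against line 1 for lncRNAs under 50, from 50 to 200 and at 200 or more mean normalized counts, with called lncRNAs in red (rose) and blue (fell). The cloud narrows onto the diagonal with abundance, and no called lncRNA lies in the quadrants where the lines move in opposite directions.

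A change picked in 1 line could be read in the other. Among lncRNAs with a line 1 mean of at least 100 normalized counts, 143 were at least 2-fold higher in 0h in line 1. In line 2, 134 of these were higher (93.7%, against 50.7%) and 74 at least 2-fold higher (51.7%, against 1.98% of all 7461 lncRNAs in that range). Of 131 that were at least 2-fold lower in line 1, 126 were lower in line 2 (96.2%, against 49.3%) and 82 at least 2-fold lower (62.6%, against 2.31%). Chosen in line 2 and read in line 1, 148 of 152 higher lncRNAs (97.4%, against 48.8%) and 171 of 178 lower ones (96.1%, against 51.2%) kept their direction. At least 2-fold changes were found for 78 of the higher (51.3%, against 2.04%) and 84 of the lower ones (47.2%, against 1.76%). Over known and predicted lncRNAs together, the median change was smaller in size where it had not been used for the choice. Chosen in line 1, the median log2 ratio was 1.01 in line 2 against 1.26 in line 1 for the rises. For the falls it was -1.16 against -1.24. Chosen in line 2, it was 1.02 in line 1 against 1.26 for the rises and -0.96 against -1.30 for the falls. Predicted falls chosen in line 1 went the other way, with -1.36 in line 2 against -1.29.

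For all 668 called lncRNAs the direction was the same in line 1 and line 2. The block for the line makes agreement of the lines part of the test, so this is a description. Of these, 541 changed at least 2-fold in each line, and the 2 conditions did not overlap for 659, where the same was true of 40.6% of all tested lncRNAs (19.5% higher and 21.1% lower in 0h). Changes of at least 2-fold in each line were found for 3435 lncRNAs, 2483 in the same and 952 in opposite directions. Both sets were mostly at low counts, with median abundances of 13.5 and 10.7 normalized counts. The highest abundance among the opposite ones was 58.1, and at a mean of 100 or more no lncRNA moved in opposite directions by 2-fold while 154 moved in the same direction.

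Predicted lncRNAs carry running numbers, and neighbours in number may be isoforms of 1 locus that share reads. Of the 373 called predicted lncRNAs, 37 had a called transcript at the next or the previous number, in 17 runs of up to 3. Each run moved in 1 direction. TCONS_00015561, TCONS_00015562 and TCONS_00015563 all fell, with log2 fold changes of -1.72, -3.07 and -2.15, as did TCONS_00025766, TCONS_00025767 and TCONS_00025768, with -3.31, -4.11 and -2.79. The 3 numbered TCONS_00005787 to TCONS_00005789 rose, by 1.80, 2.73 and 1.52 on the log2 scale. TCONS_00069399, of 1343 bp, rose by 3.30 on the log2 scale next to TCONS_00069400. Such runs may not be independent transcripts.

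At the criterion of an unadjusted p below 0.05 with at least a 2-fold change, 2636 lncRNAs passed in edgeR's quasi-likelihood test (7.67% of those tested), 1233 higher (3.59%) and 1403 lower (4.08%) in 0h. Known lncRNAs made up 363 and predicted 870 of the higher ones, and 475 and 928 of the lower ones. Without the N library of line 2 this balance turned, with 1541 higher and 1302 lower.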

How the data were processed

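Total RNA was depleted of rRNA, primed with random hexamers and sequenced on an Illumina HiSeq 2000. The authors assembled transcripts with Cufflinks, guided by RefSeq, compared them with NONCODE and scored predicted lncRNAs with the Coding Potential Calculator. Which aligner, counter and genome build were used is not given in the sources used here. The deposited values per transcript are the unique read counts, length, coverage (in percent, its exact definition not known) and RPKM. The RPKM values were made by the authors from the count, the length and the total of counts on lncRNAs, not of all reads.

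Here a transcript missing from a table was counted as 0. Counts were fitted with edgeR 4.0.16 in R 4.3.3 (quasi-likelihood test, TMM normalization) over all 6 libraries, with the line as a block and 2 residual degrees of freedom, and adjusted over 34347 transcripts. The differences between lines 1 and 2 within a condition correlated across transcripts between conditions (r from 0.182 to 0.193, and 0.511 to 0.58 at a mean of 100 or more), and the study names 2 lines, so the numbers were taken to pair the libraries. P-values set the change from N to 0h against the spread left after the block. That spread is estimated from all 6 libraries, with information shared across transcripts. It reflects how unevenly differences between conditions repeated in the 2 lines, not the mean difference between the lines, which the block takes out. The common biological coefficient of variation was 21.3% with the block and 28.9% without. Normalized counts are TMM-scaled, ratios within a line add 0.5, and called means FDR below 0.05 with at least 2-fold. Scripts were tested on simulated data. DESeq2 1.42.0, other scalings, filters and left-out libraries were alternatives.

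Named lncRNAs were 2 that the study names and that could be matched by identifier or length, then among the called: the 5 largest rises and falls of known and of predicted lncRNAs at a mean of 100 or more and with both lines alike, the 5 with the most reads per direction, the 3 with the most reads at 0 in 1 condition, and the longest. The 3 most abundant with opposite lines and the 5 highest in RPKM in N were added. Members and rules were chosen with earlier results of these data known.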

Additional observations from a re-analysis of the deposited data

Results flagged for a closer look

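In 3 lncRNAs, the most abundant with such a pattern, line 1 rose and line 2 fell by at least 2-fold after GDNF withdrawal. n271539 (2502 bp) had a log2 ratio of 1.30 in line 1 (32.0 to 79.6 normalized counts) and -1.51 in line 2 (89.8 to 31.2). TCONS_00001299 (1807 bp) had 1.19 in line 1 and -1.33 in line 2. TCONS_00090524 (2450 bp) had 1.11 in line 1 and -1.26 in line 2. With 1 library per line and condition the difference was not tested. None of the 3 was called over both lines (FDR 0.93 to 0.99).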

How the results depend on the processing

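Without the replicate block, that is without pairing by line, 80 lncRNAs rose and 115 fell, and of these 195 calls 194 were shared with the 668. Over the 4 libraries alone, 464 rose with the block, and 84 rose and 107 fell without it. DESeq2 called 230 lower, 420 of its 428 calls being shared, and at unadjusted p it found 922 lower. That criterion gave 1943 higher and 2174 lower with no filter, and 251 and 302 at a minimum of 50 counts. Leaving out 1 library at a time gave 222 to 433 that rose and 261 to 509 that fell, and 1150 to 1541 higher and 1302 to 1685 lower at the unadjusted criterion, where rises outnumbered falls (1541 and 1302) without N replicate 2. Without 1 N or 0h library 362 to 449 of the 668 calls were shared, and the replicate block over 4 libraries shared 654 of its 1008. The highest numbers that rose came without an 8h library (433 and 422). No called lncRNA changed direction under the alternatives that tested it, 234 of the 668 being untested at a minimum of 50 counts. Of 39 called and named lncRNAs 27 kept the call throughout. With DESeq2 34 kept it, and the rest had no adjusted p there. The cause of these differences was not tested.

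Uncalled lncRNAs changed sign when a library was left out: n271539 ranged from -1.28 to 0.95, TCONS_00001299 from -1.24 to 1.07 (-0.037 with the replicate block over 4 libraries), TCONS_00090524 from -1.14 to 1.01, n422896 from -0.067 to 0.082, n294267 from -0.042 to 0.27, n272737 from -0.042 to 0.21 and n422894 from -0.18 to 0.009.

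The Pearson r between the lines was 0.316 with a pseudocount of 8, 0.568 at a minimum of 50 counts and 0.116 with no filter, and 0.204, 0.353, 0.492, 0.722 and 0.831 from the lowest to the highest abundance class. The share called was 3.85% of known and 5.33% of predicted lncRNAs at a minimum of 50 counts. From the lowest to the highest abundance it was 0.516%, 1.84%, 3.61%, 2.59% and 1.75% for known and 0.734%, 2.51%, 3.88%, 3.54% and 3.63% for predicted. By length it was 1.76%, 1.79% and, at 5000 bp or more, 1.54% for known, and 0.809%, 0.884%, 1.50%, 3.91% and 3.85% for predicted. Depth limits this comparison: below 20 normalized counts the median standard error of 0.76 comes near the size of a 2-fold change.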

Other observations

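Called falls were unevenly spread over the running numbers of predicted lncRNAs, a pattern chosen after the values were seen. Of 308 tested transcripts numbered 52000 to 53999, 23 fell (7.47%) and 3 rose, while 208 of the other 19896 fell (1.05%). By blocks of 1000 numbers, this range held 12 and 11 falls, and no other block held more than 7. All 23 fell at least 2-fold in both lines, at mean abundances from 8.61 to 308 normalized counts. As they were chosen from the called, this is a description, and 541 of all 668 called lncRNAs also changed at least 2-fold in both lines. The median log2 ratio of the 308 was -0.24 in line 1 and -0.36 in line 2. Of the 14 called lncRNAs at 0 in both 0h libraries, 7 carried these numbers, among them TCONS_00053255 and TCONS_00053838. Positions are not analysed here, so it is not known whether these numbers share a locus or reads.

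Over the 162 blocks of 1000 numbers with at least 50 tested transcripts, the block median of the log2 fold change ranged from -0.51 to 0.38. The medians of the lines had a Pearson r of 0.471 and a Spearman rho of 0.561 across blocks, given as a description, since all blocks share the same 4 libraries.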
